A study of Homo sapiens with 12 samples.

Results

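The Krüppel-like factors (KLFs) are transcription factors that bind GC boxes and CACCC boxes through zinc fingers at their carboxy end. The 10 members described here are KLF2, KLF3, KLF4, KLF5, KLF6, KLF7, KLF9, KLF10, KLF11 and KLF13. They were taken from the 19775 genes that had a probe set annotated to a single symbol. Together they had 32 of the 41097 such probe sets, and for each gene the probe set with the highest mean over the 12 arrays was used, with the others as a check. All 10 members passed the filter on dim genes (log2 6.67, the array median, or more on at least 2 arrays), as did 14283 genes in all.

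The study measured transcripts in RCC4 and UMRC2, a pair of human kidney cancer lines, to find what FoxO1 and FoxO3 change when they are switched on. Each line stably carried a FoxO3(TA)-ERT2 fusion, a FoxO1(TA)-ERT2 fusion or, as the empty vector (EV) control, the ERT2 part alone. TA marks the replacement of 3 AKT phosphorylation sites by alanine. ERT2 is a modified estrogen receptor domain, and 4-hydroxytamoxifen (4OHT) moves the fusion into the nucleus. The FoxO3, FoxO1 and EV cells of each line received either 4OHT at 100 nM or the ethanol vehicle for 12 h, under puromycin selection in all groups, and each of these 12 combinations was hybridised to 1 Affymetrix U133 Plus 2.0 array. Both fusions lack AKT control, so the cells model forced nuclear FoxO activity and not the endogenous proteins. The promoter of the constructs, and whether each engineered line was a clone or a pool, are not given in the sources used here.

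KLFs fall into groups by their partners. KLF2, KLF4, KLF5, KLF6 and KLF7 act mostly as activators that recruit histone acetyltransferases. KLF3 represses through the corepressor CtBP, and KLF9, KLF10, KLF11 and KLF13 repress through SIN3A and histone deacetylases. In epithelia the family is known for setting proliferation against differentiation, and KLF6 is best known as an injury-induced factor with tumour suppressor activity. FoxO factors are the forkhead proteins that insulin and AKT signalling hold in the cytoplasm.

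The deposited arrays lay at unequal levels, with medians of 71.1 to 138.7, and were quantile-normalised before use. The geometric mean of the spike-in probe sets was 3292 to 3711 on 5 RCC4 arrays, 1975 on the RCC4 FoxO3 array with 4OHT and 1747 to 1933 on the UMRC2 arrays, so the FoxO and FoxO3 calls of the members are also given without the pair that holds that RCC4 FoxO3 array. The ESR1 probe set was at log2 8.97 to 13.55 in the fusion cells, against 4.67 to 6.56 in EV cells, below the array median although the labels give EV cells ERT2. Of 7 kidney and renal carcinoma markers found, 4 were at or above the array median on all 12 arrays, among them PAX8 at 11.17 to 12.58. Of 4 leukocyte markers 3, and of 5 endothelial markers 3, reached it on no array, with CD14 and CDH5 at the floor (log2 4.2) throughout. PECAM1 was above it on 12 arrays and CD3E on 9, and their part in the results was not tested.

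A level below is the log2 normalised intensity of 1 array. A response is the level with 4OHT minus the level with vehicle in the same engineered line. A response relative to EV is that response minus the EV response of the same cell line. Fits used limma over all genes, with Benjamini-Hochberg adjustment at 0.05, two-sided. Errors after ± are standard errors unless marked SD. Every construct was measured in 2 cell lines (n = 2). In a comparison of constructs a p-value thus measures how far the lines differ, with a variance partly shared over all genes. The tests between the cell lines use other replicates, named where they are given. No p-value here measures the spread of repeat cultures. A gene is said to have risen or fallen only where it passed.

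Activation of FoxO, averaged over both isoforms and set against EV, raised KLF5, KLF6 and KLF3, and no member fell. Among all genes tested 3.09% were called higher and 4.70% lower. The median member differed by 0.15, against -0.05 over all genes. KLF5 rose 4.47-fold and KLF6 3.77-fold on average. Without the RCC4 FoxO3 pair the log2 values of KLF5, KLF6 and KLF3 were 1.95, 1.69 and 1.09, all still called (adjusted p = 0.00233, 0.00364 and 0.0123), where 1393 genes were called in all. All response calls of the members, and those of every other gene, ended (0 calls) with a constant prior variance, with one tied to the mean response, or without the filter on dim genes; 2734, 2718 and 3402 genes then had an unadjusted p below 0.05 in this comparison.

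KLF5 drives proliferation of epithelial progenitor cells, in gut and elsewhere. With 4OHT its level was 11.42 in RCC4 FoxO3 and 10.63 in UMRC2 FoxO3 cells, against 8.56 and 8.77 with vehicle. In FoxO1 cells it was 10.18 in RCC4 and 10.38 in UMRC2 with 4OHT, against 8.56 and 8.76 with vehicle. In EV cells it was 8.38 in RCC4 and 8.77 in UMRC2 with 4OHT, against 8.39 and 9.10 with vehicle. The 4 FoxO arrays with 4OHT were thus the highest, and no other array came within 1 unit of them. The responses of the 4 FoxO lines ran from 1.62 to 2.86, between 3.07-fold and 7.26-fold. Relative to EV the mean FoxO response was 2.16 ± 0.25 (adjusted p = 0.00638), and KLF5 was higher in 4 of 4 FoxO lines. Its other probe set gave 2.29 ± 0.34 (adjusted p = 0.0108).

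KLF6 responds to tissue injury and restrains growth in several epithelia. With 4OHT it was at 13.59 in RCC4 FoxO3 and 14.13 in UMRC2 FoxO3 cells, against 10.84 and 12.69 with vehicle. In FoxO1 cells it was at 12.72 in RCC4 and 13.61 in UMRC2 with 4OHT, against 10.64 and 12.51 with vehicle. In EV cells it was at 10.41 in RCC4 and 12.66 in UMRC2 with 4OHT, against 10.58 and 12.63 with vehicle. Within each line the FoxO arrays with 4OHT did not overlap the rest, although every UMRC2 array with vehicle lay above every RCC4 array with vehicle. The mean FoxO response relative to EV was 1.91 ± 0.28 (adjusted p = 0.0104). With the values as deposited it was 1.63 and missed the threshold (adjusted p = 0.0671). Without the RCC4 EV pair it was 1.24 (adjusted p = 0.0176), the only leave-out that moved it by over 1.5 times.

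The 4 other probe sets of KLF6 all had positive values, and 3 of them passed, with 2.12 to 2.45. The exception had 0.91 ± 0.26 (adjusted p = 0.0769).

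**Figure D1:**
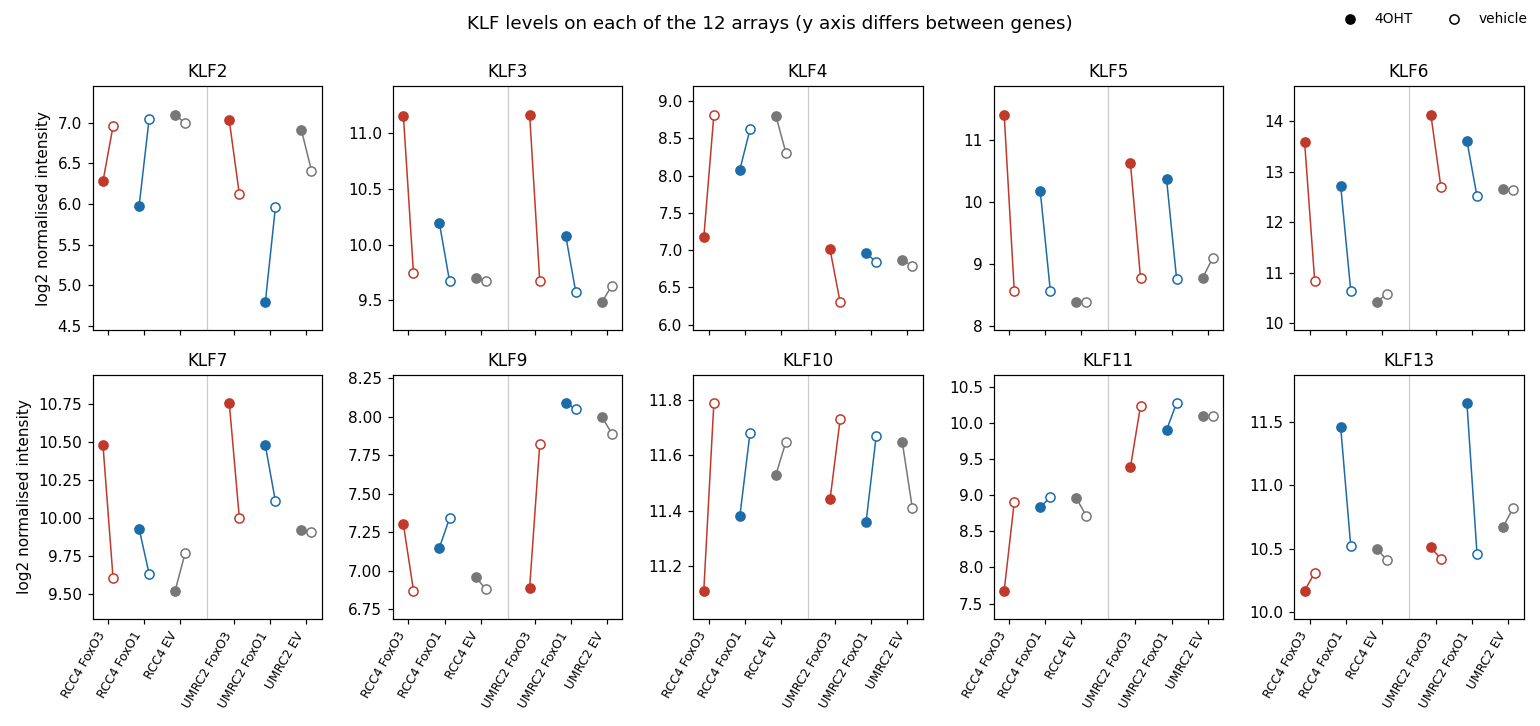
Log2 normalised intensity of each KLF on the 12 arrays (y axis, a separate scale for each gene), by cell line and construct (x axis). Filled points are 4OHT and open points vehicle, joined within an engineered line, with FoxO3 in red, FoxO1 in blue and EV in grey; each point is 1 array. KLF5 and KLF6 were higher with 4OHT in all 4 FoxO lines, while KLF13 was higher with 4OHT mainly in the FoxO1 lines (11.46 and 11.65).

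To show the sequence at the starts of the genes that rose most, the 250 bases before a RefSeq start of KLF5 and of KLF6 (GRCh38.p14) are printed below, 5′ to 3′ on the gene's strand. The array annotation names no genome build. The KLF5 stretch is chr13:73054726-73054975 on the plus strand, before the first of its 2 annotated starts, and the KLF6 stretch is chr10:3785210-3785459 on the minus strand. Capitals mark matches on either strand to any of 4 motifs: GTAAACA (the forkhead core), CAAAACA (the FoxO site of insulin response sequences), GGGCGG (the GC box) and CACCC.
KLF5: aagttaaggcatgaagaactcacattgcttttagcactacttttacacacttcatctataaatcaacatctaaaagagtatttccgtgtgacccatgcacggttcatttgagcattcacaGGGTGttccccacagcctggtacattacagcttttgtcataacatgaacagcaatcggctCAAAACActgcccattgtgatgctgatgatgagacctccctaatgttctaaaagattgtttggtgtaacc
KLF6: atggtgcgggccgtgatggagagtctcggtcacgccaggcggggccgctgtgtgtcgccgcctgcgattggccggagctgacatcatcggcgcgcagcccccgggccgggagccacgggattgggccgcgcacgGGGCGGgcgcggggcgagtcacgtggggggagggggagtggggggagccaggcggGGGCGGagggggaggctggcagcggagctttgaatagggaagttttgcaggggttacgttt
The promoter table used, from RefSeq, gave 13 windows of 300 bases (250 before and 50 after a start) for 8 members, and the windows of KLF3 and KLF10 were not analysed here. GTAAACA was in 0 of the 13 windows, against 3.42% of 35116 promoters in the table. CAAAACA was in 1, the KLF5 window above, where the match begins 70 bases before the start, against 4.92% of all promoters. GGGCGG was in 8 windows of 7 genes (45% of all promoters) and CACCC in 7 windows of 4 genes (59.9%). The window at the other KLF5 start, chr13:73058755-73059054, held 2 GC box and 2 CACCC matches and no forkhead motif of either kind. Its G and C content was 71.3%, against 40.7% in the first KLF5 window. These are counts of letters in short windows and describe no binding.

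KLF3, the CtBP-dependent repressor, was at 11.16 in RCC4 FoxO3 and 11.17 in UMRC2 FoxO3 cells with 4OHT, against 9.74 and 9.67 with vehicle. FoxO1 cells had 10.19 in RCC4 and 10.08 in UMRC2 with 4OHT, against 9.67 and 9.57 with vehicle. EV cells had 9.70 in RCC4 and 9.48 in UMRC2 with 4OHT, against 9.67 and 9.63 with vehicle. The order was the same in both lines, with FoxO3 highest, FoxO1 next and EV lowest under 4OHT. The 6 vehicle arrays spanned 9.57 to 9.74, so the FoxO1 arrays with 4OHT also stood above all of them. The mean FoxO response relative to EV was 1.04 ± 0.18 (adjusted p = 0.0176). This call was lost without the RCC4 EV pair (1.16, adjusted p = 0.0676), the UMRC2 EV pair (0.93, adjusted p = 0.159) or the UMRC2 FoxO1 pair (1.03, adjusted p = 0.0563), with the mean over its probe sets (0.79, adjusted p = 0.0673) and with the values as deposited (0.76, adjusted p = 0.729). Its 3 other probe sets gave 0.49 to 0.83, all positive, and none passed.

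Taken singly, FoxO3 moved more members past the threshold than FoxO1, though only the direct comparison further below tests a difference between them. Under FoxO3, 4 members rose (KLF5, KLF6, KLF3 and KLF7) and KLF11 fell, where 6.61% of all genes were called higher and 10.0% lower. KLF5 had 2.53 ± 0.29 (adjusted p = 0.0025), KLF6 2.17 ± 0.32 (adjusted p = 0.00506) and KLF3 1.51 ± 0.21 (adjusted p = 0.00407). Without the RCC4 FoxO3 pair these were 2.11, 1.71 and 1.61, all still called (adjusted p = 0.00435, 0.00924 and 0.00734). With the values as deposited KLF6 had 1.77 (adjusted p = 0.0506) and KLF3 1.14 (adjusted p = 0.345). Of the 3 other KLF3 probe sets 1 passed under FoxO3 (1.22, adjusted p = 0.025), while the other two had 0.67 (adjusted p = 0.221) and 0.87 (adjusted p = 0.113), each over 1.5 times smaller than the value of the brightest. The median member differed by -0.10, against -0.07 over all genes.

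Under FoxO1 no member passed, where 0.0840% of all genes (12 genes) were called higher and 0 lower. At an unadjusted p below 0.05 there were 4 members: KLF5 with 1.79 ± 0.29 (adjusted p = 0.101), KLF6 with 1.66 ± 0.32 (adjusted p = 0.136), KLF13 with 1.10 ± 0.21 (adjusted p = 0.132) and KLF3 with 0.57 ± 0.21 (adjusted p = 0.428). Of the 14283 genes tested 1431 had an unadjusted p below 0.05 there. KLF5, KLF6 and KLF13 passed when either FoxO3 pair was left out (adjusted p = 0.0129, 0.0151 and 0.0411), in fits that called 172 genes in all, 100 higher and 72 lower, against 12. KLF6 also passed without the UMRC2 EV pair (2.33, adjusted p = 0.017), where 16 genes were called. The FoxO3 and FoxO1 values share their EV arrays.

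**Figure D2:**
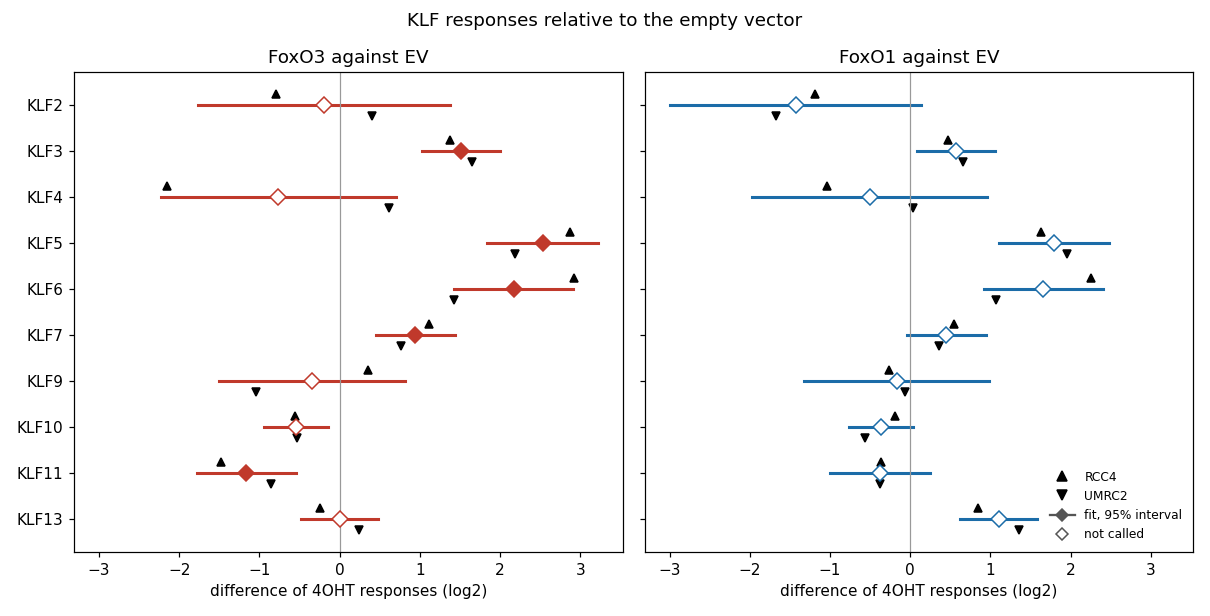
Response relative to EV (log2, x axis) of each KLF (y axis) for FoxO3 on the left and FoxO1 on the right. Diamonds are the limma estimates with 95% intervals as bars, filled where the adjusted p passed, and triangles are the values of RCC4 (pointing up) and UMRC2 (pointing down). The interval of KLF5 ran from 1.84 to 3.22 under FoxO3 and from 1.10 to 2.48 under FoxO1, and those of KLF2 and KLF4 spanned 0 under both.

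KLF7, known mainly from neuronal development, was at 10.48 in RCC4 FoxO3 and 10.76 in UMRC2 FoxO3 cells with 4OHT, against 9.60 and 10.00 with vehicle. The FoxO1 cells had 9.93 in RCC4 and 10.48 in UMRC2 with 4OHT, against 9.63 and 10.11 with vehicle. The EV cells had 9.52 in RCC4 and 9.92 in UMRC2 with 4OHT, against 9.77 and 9.91 with vehicle. All 4 FoxO responses were positive, from 0.30 to 0.88. Under FoxO3 KLF7 rose by 0.94 ± 0.21 relative to EV (adjusted p = 0.0229), and the mean over both isoforms was 0.70 ± 0.18 (adjusted p = 0.0623). The FoxO3 call was lost without the RCC4 FoxO3 pair (0.81, adjusted p = 0.0968), without the RCC4 EV pair (0.80, adjusted p = 0.143) or the UMRC2 EV pair (1.08, adjusted p = 0.0693), and with each array divided by its median (0.85, adjusted p = 0.0552). With the values as deposited it was 0.56 (adjusted p = 0.735), over 1.5 times smaller. The 4 other KLF7 probe sets were positive too, with 0.82 to 1.10 under FoxO3, but only 1 of them passed (1.10, adjusted p = 0.0226) and the other three missed the threshold (adjusted p = 0.0652, 0.114 and 0.174).

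KLF2 and KLF4, activators known from endothelial quiescence and from epithelial barriers and stem cell reprogramming, did not pass in any response comparison. KLF4 was at 7.17 in RCC4 FoxO3 and 7.01 in UMRC2 FoxO3 cells with 4OHT, against 8.82 and 6.30 with vehicle. In FoxO1 cells it was at 8.08 in RCC4 and 6.96 in UMRC2 with 4OHT, against 8.62 and 6.84 with vehicle. EV cells had 8.80 in RCC4 and 6.87 in UMRC2 with 4OHT, against 8.30 and 6.79 with vehicle. The RCC4 FoxO lines were lower with 4OHT and the UMRC2 FoxO lines higher. KLF2 was at 6.28 in RCC4 FoxO3 and 7.03 in UMRC2 FoxO3 cells with 4OHT, against 6.96 and 6.12 with vehicle. In FoxO1 cells it was at 5.97 in RCC4 and 4.79 in UMRC2 with 4OHT, against 7.05 and 5.96 with vehicle. Its EV levels were 7.10 in RCC4 and 6.91 in UMRC2 with 4OHT, against 6.99 and 6.41 with vehicle. It was lower with 4OHT in 3 of the 4 FoxO lines, and 6 of its 12 arrays were at or above the array median. Relative to EV the mean FoxO difference was -0.64 for KLF4 (95% interval -1.91 to 0.64) and -0.81 for KLF2 (-2.17 to 0.54). Their other probe sets gave 0.46 for KLF4 and -0.15 for KLF2. The other KLF2 probe set had responses of 0.46 under FoxO1 and 0.69 under FoxO3 in RCC4, and -0.93 and -0.21 in UMRC2. The other KLF4 probe set had -0.06 under FoxO1 and -2.37 under FoxO3 in RCC4, and 0.64 and -0.75 in UMRC2.

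Among the SIN3A-recruiting members, KLF11 fell under FoxO3. KLF11 and KLF10 are TGF-beta-inducible repressors of cell growth. KLF11 was at 7.68 in RCC4 FoxO3 and 9.39 in UMRC2 FoxO3 cells with 4OHT, against 8.91 and 10.24 with vehicle. Its levels in FoxO1 cells were 8.84 in RCC4 and 9.90 in UMRC2 with 4OHT, against 8.97 and 10.28 with vehicle. Its levels in EV cells were 8.96 in RCC4 and 10.10 in UMRC2 with 4OHT, against 8.71 and 10.10 with vehicle. Within each line the FoxO3 array with 4OHT was the lowest. The FoxO3 response relative to EV was -1.17 ± 0.26 (adjusted p = 0.0236), a 2.24-fold decrease, and over both isoforms it was -0.77 ± 0.23 (adjusted p = 0.0872). The FoxO3 call was lost without the RCC4 FoxO3 pair (-0.85, adjusted p = 0.124), the RCC4 EV pair (-1.01, adjusted p = 0.138) or the UMRC2 EV pair (-1.32, adjusted p = 0.072), with the other probe set (-0.96, adjusted p = 0.0919) and with the values as deposited (-1.56, adjusted p = 0.131).

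KLF10 was lower with 4OHT in 4 of 4 FoxO lines, with responses of -0.68 to -0.29, but did not pass. Its mean FoxO response relative to EV was -0.46 ± 0.15 (adjusted p = 0.109), and under FoxO3 it was -0.55 ± 0.17 (adjusted p = 0.0724). It spanned only 11.11 to 11.79 over the 12 arrays and had a single probe set.

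KLF9, which glucocorticoid and thyroid hormones induce, had a mean FoxO response relative to EV of -0.26 (95% interval -1.26 to 0.74). Under FoxO3 it was at 7.30 in RCC4 and 6.89 in UMRC2 cells with 4OHT, against 6.87 and 7.82 with vehicle, so the lines moved in opposite directions. Its 4 other probe sets ran from -0.80 to 0.60, and 2 of them had the opposite sign.

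KLF13, which regulates the chemokine gene CCL5 in T cells, was the member with the largest called difference between the isoforms by its brightest probe set. With 4OHT it was at 10.17 in RCC4 FoxO3 and 10.51 in UMRC2 FoxO3 cells, against 10.31 and 10.42 with vehicle. In FoxO1 cells it was at 11.46 in RCC4 and 11.65 in UMRC2 with 4OHT, against 10.52 and 10.46 with vehicle. In EV cells it was at 10.50 in RCC4 and 10.67 in UMRC2 with 4OHT, against 10.41 and 10.82 with vehicle. The FoxO1 arrays with 4OHT were the highest pair, and the other 10 arrays lay between 10.17 and 10.82. The FoxO3 response relative to EV was 0.00 (95% interval -0.48 to 0.48). This value rests on 1 probe set. The second KLF13 probe set that passed the filter had 1.02 ± 0.59 under FoxO3 (adjusted p = 0.3) and a response of 2.24 in RCC4 FoxO3 cells, against -0.26 in UMRC2 FoxO3 cells.

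The 250 bases before the RefSeq start of KLF13, chr15:31326585-31326834 on the plus strand of GRCh38.p14, are shown for comparison with KLF5 and KLF6, with capitals as above.
KLF13: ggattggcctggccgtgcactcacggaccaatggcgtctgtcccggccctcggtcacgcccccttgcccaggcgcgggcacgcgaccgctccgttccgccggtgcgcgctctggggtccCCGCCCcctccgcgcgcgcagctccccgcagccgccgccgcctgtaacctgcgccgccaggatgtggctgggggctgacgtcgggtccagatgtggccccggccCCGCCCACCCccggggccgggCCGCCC
It held 3 GC box matches and 1 CACCC match, 2 of them overlapping, and no forkhead motif of either kind.

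With FoxO3 set directly against FoxO1, the KLF3 response was larger under FoxO3 and the KLF13 response was lower. Of all genes 2.17% were called higher under FoxO3 and 3.64% lower. The KLF3 response was 0.95 ± 0.21 larger under FoxO3 (adjusted p = 0.0439), with responses of 1.41 under FoxO3 and 0.51 under FoxO1 in RCC4, and 1.5 and 0.51 in UMRC2. The KLF13 response differed by -1.10 ± 0.21 (adjusted p = 0.0294), with responses of -0.14 under FoxO3 and 0.94 under FoxO1 in RCC4, and 0.09 and 1.19 in UMRC2. By these brightest probe sets both cell lines gave nearly the same differences. The second KLF13 probe set that passed the filter had 2.24 under FoxO3 and 2.56 under FoxO1 in RCC4, and -0.26 and 1.32 in UMRC2. Another KLF3 probe set had 0.68 under FoxO3 and 0.45 under FoxO1 in RCC4, and -0.03 and 0.84 in UMRC2. The KLF3 call was lost without any 1 of the 4 FoxO pairs (0.86 to 1.04, adjusted p from 0.0794 to 0.303), and 1 of its 3 other probe sets gave -0.32. The KLF13 call was lost without the RCC4 FoxO3 pair (-0.98, adjusted p = 0.0808), the RCC4 FoxO1 pair (-1.23, adjusted p = 0.163) or the UMRC2 FoxO1 pair (-0.96, adjusted p = 0.161). In this comparison that second KLF13 probe set gave -0.95 (adjusted p = 0.414), and its 2 dim ones gave -0.64 and 2.65. With the values as deposited KLF3 had 0.76 (adjusted p = 0.963) and KLF13 -1.29 (adjusted p = 0.609), and with the mean over probe sets they had 0.56 (adjusted p = 0.211) and -0.01 (adjusted p = 0.993). Dividing each array by its median left KLF3 at 0.94 (adjusted p = 0.061).

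No other member passed in this comparison. The interval of the difference was 0.05 to 1.43 for KLF5 (0.74, adjusted p = 0.2), -0.23 to 1.25 for KLF6 (0.51, adjusted p = 0.417) and -0.01 to 0.98 for KLF7 (0.49, adjusted p = 0.235). For KLF11 it was -1.41 to -0.17 (-0.79, adjusted p = 0.134). These 4 intervals lay mostly or wholly on the side of the larger FoxO3 response. KLF2 had a larger estimate, 1.24 (-0.33 to 2.8, adjusted p = 0.345), but there FoxO1 had the larger response. Relative to EV, KLF2 had -1.43 under FoxO1 and -0.19 under FoxO3. KLF4, KLF9 and KLF10 had -0.26, -0.18 and -0.17, with intervals that spanned 0. A value that missed the threshold does not show that the isoforms act alike. In RCC4 the fusion transcript differed as well, with ESR1 at 12.69 in FoxO3 and 8.97 in FoxO1 cells with 4OHT, and in UMRC2 at 12.82 and 12.14. The part of the fusion level in these differences was not tested.

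**Figure D3:**
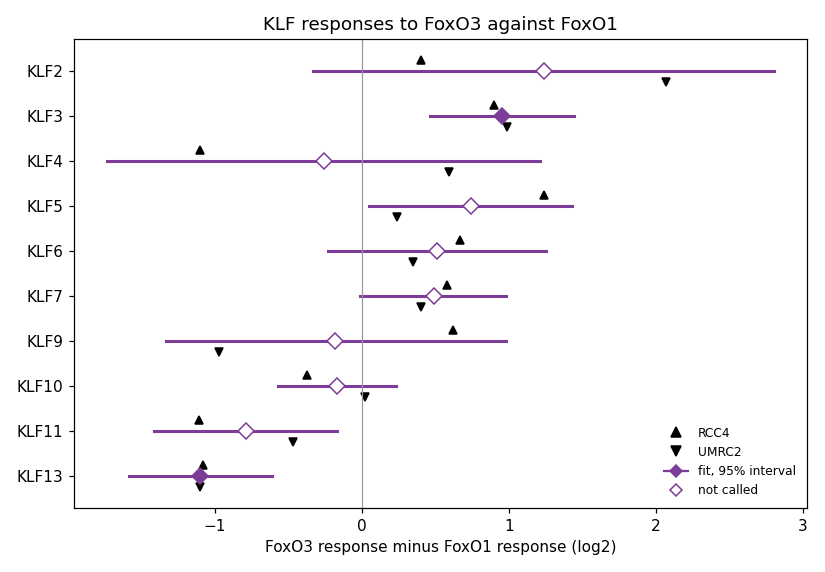
FoxO3 response minus FoxO1 response (log2, x axis) of each KLF (y axis). Diamonds are limma estimates with 95% intervals, filled where the adjusted p passed, and triangles are the values of RCC4 (pointing up) and UMRC2 (pointing down). By the brightest probe sets, KLF3 (0.95) and KLF13 (-1.10) were called, and for both the triangles of the lines nearly coincide.

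**Figure D4:**
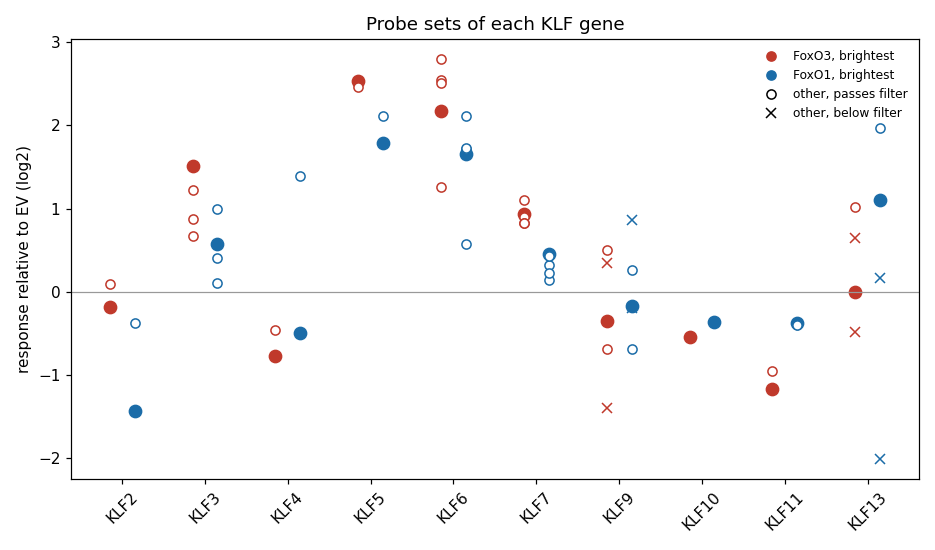
Response relative to EV (log2, y axis) of every probe set of each KLF (x axis), FoxO3 in red and FoxO1 in blue. Large filled points are the brightest probe set, small open circles others that passed the filter, and crosses others that did not. The probe sets of KLF5, KLF6, KLF3, KLF7 and KLF11 kept 1 sign in each gene, while those of KLF2, KLF4, KLF9 and KLF13 lay on both sides of 0.

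In EV cells 4OHT called no member, and 0 of all genes, in either direction with limma, with 338 genes and 0 members at an unadjusted p below 0.05. The 20 single EV responses of the members ran from -0.33 for KLF5 in UMRC2 to 0.50 for KLF2 in UMRC2 and KLF4 in RCC4. Without 4OHT, the fusion cells called no member and 0 of all genes against EV cells, with 1027 genes at an unadjusted p below 0.05. The nearest member was KLF10, with 0.19 ± 0.07 (unadjusted p = 0.0338, adjusted p = 0.68). For KLF5 the interval of this difference was -0.42 to 0.26 and for KLF6 -0.09 to 0.22.

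Before any 4OHT the cell lines differed in 5 of the 10 members. They also differed in 7179 of the 14283 genes tested, a similar share. Among vehicle arrays, 3 per line, KLF4 was higher in RCC4 and KLF6, KLF11, KLF9 and KLF7 were lower, where 26.6% of all genes were called higher and 23.6% lower. KLF6 was at 10.69 ± 0.14 in RCC4 and 12.61 ± 0.09 in UMRC2 (SD, n = 3), a difference of -1.92 (adjusted p = 4.05e-06). KLF4 was at 8.58 ± 0.26 in RCC4 and 6.64 ± 0.30 in UMRC2 (SD, n = 3), a difference of 1.94 (adjusted p = 0.000857). KLF11 differed by -1.34 (adjusted p = 7.02e-05), KLF9 by -0.89 (adjusted p = 0.00899) and KLF7 by -0.34 (adjusted p = 0.0266), a call lost without any 1 of the 4 fusion arrays (adjusted p = 0.118 to 0.132). KLF2 had 0.83 (adjusted p = 0.0606) and KLF5 -0.37 (adjusted p = 0.0572). With the values as deposited the median of all genes in this comparison moved to 0.77, against 0.06 after quantile normalisation, KLF7 changed sign (0.38) and KLF9 had -0.25 (adjusted p = 0.339). The 3 lines of each parent stand in as replicates here, and the spike-in levels of the lines differ in the same arrays.

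The FoxO response was not called different between the lines for any member or for any gene, in either direction with limma (338 genes at an unadjusted p below 0.05). Within a line FoxO1 and FoxO3 stood as replicates of FoxO in this test, so its p-values measure how far the isoforms differ. For KLF3 and KLF13, whose isoform difference was called, the standard errors were 0.85 and 0.92. KLF6 had the smallest p of the members. Its FoxO3 and FoxO1 responses relative to EV were 2.92 and 2.25 in RCC4 and 1.42 and 1.07 in UMRC2, a difference of 1.34 ± 0.53 (unadjusted p = 0.0456, adjusted p = 1). RCC4, where KLF6 was lower with vehicle, had the larger KLF6 responses, and its 4OHT levels under FoxO3 (13.59) stayed under those of UMRC2 (14.13).

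Other genes of the KLF network were followed in 4 lists. Of 16 other KLF and SP genes 11 were tested, and KLF16, a SIN3A-binding repressor, was the single call. Of all genes 10.0% were called lower and 6.61% higher under FoxO3, and 4.70% and 3.09% under FoxO averaged. KLF16 fell under FoxO3 by 1.79 ± 0.28 on the log2 scale relative to EV (adjusted p = 0.00596), with responses of -1.48 in RCC4 and -1.14 in UMRC2. Under FoxO averaged it had -1.20 ± 0.24 (adjusted p = 0.0283), a call lost without the RCC4 EV, UMRC2 EV or UMRC2 FoxO1 pair (-1.15, -1.24 and -1.06). That call was also lost as deposited (-1.47, adjusted p = 0.175) and with the mean over its probe sets (-0.91, adjusted p = 0.107). The list median under FoxO3 was -0.12, against -0.07 over all genes. Without the RCC4 FoxO3 pair the FoxO3 value of KLF16 was -1.46 (adjusted p = 0.0224). Of 12 cofactors 1 rose under FoxO3 and 0 fell, where 6.61% of all genes were called higher and 10.0% lower, and the list median was 0.24, against -0.07 over all genes. The call was the corepressor gene CTBP2, a partner of KLF3, with 0.45 ± 0.12 (adjusted p = 0.0468), and it was lost without any 1 of the 6 pairs (0.39 to 0.50). The CTBP2 value was smaller and uncalled as deposited (0.08, adjusted p = 0.97) and with each array divided by its median (0.37, adjusted p = 0.351). With the mean over probe sets it was 0.34 (adjusted p = 0.235). Of 15 upstream regulators of KLF genes and proteins, 2 rose under FoxO3 and 0 fell, against the same 6.61% and 10.0% of all genes, with a median of 0.44, against -0.07. They were FBXW7, which marks KLF5 for degradation (1.51 ± 0.37, adjusted p = 0.0319), and the ubiquitin ligase gene SIAH1 (0.75 ± 0.17, adjusted p = 0.0256). Both calls were lost without the RCC4 FoxO3 pair, with 0.86 for FBXW7, over 1.5 times smaller (adjusted p = 0.159), and 0.69 for SIAH1 (adjusted p = 0.0886). They were also lost without either EV pair and with the values as deposited (1.15 and 0.37).

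Of 15 tested textbook KLF targets, 4 fell under FoxO3 and 0 rose, where 10.0% of all genes were called lower and 6.61% higher, with a median of -0.18, against -0.07 over all genes. CCND1, cyclin D1, had -2.58 ± 0.24 (adjusted p = 0.00149), with responses of -2.74 and -1.91 in the RCC4 FoxO3 and FoxO1 cells and -2.68 and -2.33 in those of UMRC2. CCNB1, cyclin B1, had -1.73 ± 0.15 (adjusted p = 0.00149), CDK1, its kinase, -1.05 ± 0.13 (adjusted p = 0.00283) and the cytokine gene TGFB1 -1.0 ± 0.16 (adjusted p = 0.0065). Without the RCC4 FoxO3 pair CCND1, CCNB1, CDK1 and TGFB1 had -2.48, -1.52, -1.02 and -1.07, all still called (adjusted p = 0.00231, 0.00141, 0.00598 and 0.0121). CDK1 and TGFB1 missed the threshold with the values as deposited (-1.40 and -1.38, adjusted p = 0.16 and 0.19), and TGFB1 also without the UMRC2 EV pair (-0.91, adjusted p = 0.051) and with the mean over its probe sets (-0.66, adjusted p = 0.242). The same 4 genes passed under FoxO averaged over the isoforms, but none passed under FoxO1 alone. There CCND1 had -1.99 (adjusted p = 0.0509), CCNB1 -0.08, CDK1 0.11 and TGFB1 -0.18. Under FoxO averaged, only CCND1 also passed with the values as deposited and without each of the 6 pairs in turn. In that comparison CCNB1 missed the threshold without either EV pair (-0.84 and -0.97) and CDK1 among others without the RCC4 FoxO3 pair (-0.45). TGFB1 had 0.07 with the mean over its probe sets (adjusted p = 0.909). CCNB1, CDK1 and TGFB1 were also lower under FoxO3 than under FoxO1 (-1.65, -1.16 and -0.82, adjusted p = 0.00745, 0.00863 and 0.0323). The TGFB1 call was lost without any 1 of the 4 FoxO pairs (-0.9 to -0.75), and the CDK1 call without the RCC4 FoxO1 pair (-1.08). With the values as deposited CCNB1, CDK1 and TGFB1 all missed the threshold in this comparison (-1.86, -1.36 and -1.03, adjusted p = 0.152, 0.516 and 0.803). CDKN1A, which KLF4 and KLF6 activate in other cells, had -0.13 ± 0.28 (adjusted p = 0.833) and SMAD7 0.40 ± 0.19 (adjusted p = 0.274) under FoxO averaged. The FOXO1 and FOXO3 probe sets had 0.36 (adjusted p = 0.734) and -0.16 (adjusted p = 0.825). With vehicle, FOXO3 was at 10.19 in RCC4 FoxO3 and 11.58 in UMRC2 FoxO3 cells, against 10.38 and 11.65 in EV cells. FOXO1 was at 6.5 in RCC4 FoxO1 and 7.12 in UMRC2 FoxO1 cells, against 6.46 and 6.78 in EV cells. Neither thus stood far above EV in the cells with its fusion, and whether they read the fusions was not tested. Under FoxO averaged ESR1 had -1.22 ± 0.24 (adjusted p = 0.0258), a call lost without the UMRC2 EV pair (-0.81) or the UMRC2 FoxO1 pair (-1.16). The call was also lost as deposited (-1.4, adjusted p = 0.211) and with the mean over probe sets (-0.69, adjusted p = 0.159). The dim EV signal enters this value, with 5.21 under 4OHT against 4.67 in RCC4 and 6.56 against 5.51 in UMRC2. FoxO1 cells had 8.97 against 9.22 in RCC4 and 12.14 against 12.59 in UMRC2. FoxO3 cells had 12.69 against 12.99 and 12.82 against 13.55.

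The genes whose levels ran most like each member called against EV under FoxO or FoxO3 were ranked by Pearson correlation over the 12 arrays, after the mean of each cell line was taken away. The points are not independent, since the arrays share cell lines, constructs and treatment. For KLF5 the 5 nearest were ATP8A1 (0.989), MEGF9 (0.988), CYTH3 (0.988), ZC2HC1A (0.987) and SESTD1 (0.984). For KLF6 they were TNFSF10 (0.995), LEPROTL1 (0.990), NT5E (0.986), FOXP1 (0.985) and CITED2 (0.985). KLF3 was followed most closely by AHSA2P (0.994), SEC62 (0.993), LYPLAL1 (0.992), SERINC1 (0.992) and DHTKD1 (0.992). For KLF7 they were FAM222B (0.991), GAB1 (0.983), NOX4 (0.983), SWAP70 (0.982) and PPP1R14C (0.979). KLF11 was nearest to B3GALT6 (0.989), SDC1 (0.986), TNPO2 (0.985), CASP2 (0.981) and YY1 (0.980).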

How the data were processed

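The data are the deposited intensities of 12 arrays, 1 per combination of cell line, construct and treatment. Per the submitters' processing notes the authors made these linear intensity values with MAS5; the scaling target is not given in the sources used here. The members and lists were chosen with earlier results of these data known. Of 54675 probe sets, 41097 had 1 gene symbol, 1801 several and 11777 none; 62 were controls. Values were quantile-normalised, floored at the 20th percentile (18.4), put on the log2 scale from the deposited intensities, and filtered as the report states. The model of the 6 responses, with terms for construct and line, was run in R 4.3.3 using limma 3.58.1 (2 residual and 5.44 prior degrees of freedom). Separate fits took the difference between the lines and the 6 vehicle arrays.

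The prior variance follows each gene's mean level. A first version let it follow the mean response and called 0 genes in every response comparison; it was replaced after that outcome had been seen, by the setting used in an earlier treatment of these data, and is kept among the alternatives. The fixed plan had said only that the prior variance was trended.

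Named genes are the 10 members, up to 4 genes per list that passed under FoxO or FoxO3 with 1 sign in all lines behind that contrast, the 5 genes most like each member called under FoxO or FoxO3 against EV, and FOXO1, FOXO3, ESR1, CDKN1A, CCND1 and SMAD7. The number of arrays limits the precision. Alternatives covered scaling, floor, filter, probe set, prior variance, the line term and leaving out each pair. Promoter sequences are RefSeq's, and gene positions were not used here.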

Additional observations from a re-analysis of the deposited data

Results flagged for a closer look

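The KLF3 response was larger under FoxO3 than under FoxO1 by 0.95, a difference between the isoforms that passed its test. Relative to EV it was 1.38 under FoxO3 and 0.47 under FoxO1 in RCC4, and 1.65 and 0.66 in UMRC2. The call was lost when any FoxO pair was left out. It was also lost with the mean over probe sets (0.56, adjusted p = 0.211) and with the values as deposited (0.76, adjusted p = 0.963).

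The KLF13 response differed between FoxO3 and FoxO1 by -1.10 and also passed. Relative to EV it was -0.24 under FoxO3 and 0.85 under FoxO1 in RCC4, and 0.24 and 1.35 in UMRC2. The call was lost without the RCC4 FoxO3, RCC4 FoxO1 or UMRC2 FoxO1 pair. It was also lost with the mean over probe sets (-0.01, adjusted p = 0.993) and with the values as deposited (-1.29, adjusted p = 0.609).

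The FoxO response of KLF4 relative to EV differed by -1.92 between RCC4 and UMRC2, since both RCC4 values were negative (-2.15 under FoxO3 and -1.04 under FoxO1) and both UMRC2 values positive (0.62 and 0.03). The test of that difference did not pass (adjusted p = 1), and the UMRC2 FoxO1 value is close to 0. The other KLF4 probe set had the opposite sign under FoxO1 relative to EV (1.39, against -0.50 for the brightest).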

How the results depend on the processing

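The response calls depend on how the variance is shared between genes. The numbers of members called for FoxO, FoxO3 and FoxO3 against FoxO1 (3, 5 and 2) all fell to 0 with a constant prior variance, with no filter, and with one tied to the mean response; the last, added after the data were seen, was the first version of the fit, and the setting reported was adopted after its 0 calls were known. Over all genes these 3 settings also left 0 calls, against 1113, 2377 and 830. With the values as deposited the members called were 1, 1 and 0, and all genes 184, 583 and 46, with 126 higher and 457 lower under FoxO3, against 944 and 1433. The medians of all genes there were -0.31, -0.42 and -0.25, against -0.05, -0.07 and -0.06. For FoxO3 against FoxO1 the count was 1 with each array divided by its median, and 0 with the mean over all probe sets (where KLF9 was not tested) or with each member's second brightest probe set. The mean over probe sets called 577, 1645 and 360 genes in all for these comparisons. Under FoxO1, 36 genes were called with arrays divided by their medians, 30 with no floor, 2 with no line term and 0 with the mean over probe sets, against 12. Leaving out 1 pair at a time gave 2 to 5 members for FoxO, 0 to 3 for FoxO1, 3 to 5 for FoxO3 and 0 to 2 for FoxO3 against FoxO1, while calls over all genes ran from 192 to 1602, 0 to 172, 1142 to 2236 and 37 to 1025. The vehicle comparison of RCC4 with UMRC2 gave 4 to 5, and 7 as deposited, where 9181 genes were higher and 1227 lower, against 3802 and 3377. KLF5 was called for FoxO and FoxO3 under every alternative but the 3 settings with no calls. Opposite signs were found for KLF7 (0.38) and KLF13 (0.58) in RCC4 against UMRC2 as deposited, and for FoxO3 against FoxO1 with a dim KLF13 probe set (2.65) and another KLF3 probe set (-0.32), and for TGFB1 under FoxO with the mean over probe sets (0.07). In each case the cause was not tested. Of 853 recomputed single values of the members, 749 kept their direction and side of the threshold or were uncalled in both, 49 of them with another sign, 86 lost a call and 14 gained one; of 832 of the other named genes, added after the data were seen, 121 lost a call and 11 gained one. The responses pair the 4OHT and vehicle arrays of each engineered line, and the line term pairs the constructs within a cell line; the labels carry no replicate numbers, so no block by number was fitted. Signal limits KLF2, which was below the array median on 6 of 12 arrays and as low as 4.79.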
